A study of Homo sapiens with 4 samples.

Results

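Homologous recombination and the Fanconi anemia pathway were examined through 35 genes, chosen by name from the 60606 genes of the count table. All 35 were present and passed the expression filter, which left 19349 genes for testing. Homologous recombination repairs broken DNA by copying an intact sister chromatid, so that it works during and after DNA replication. The Fanconi proteins recognise crosslinks between the strands, mark the FANCD2 and FANCI pair with ubiquitin, and pass the opened lesion to the recombination factors. Checkpoint kinases hold the cell cycle while repair proceeds. In prostate cancer these genes are known for the sensitivity of tumours with lost BRCA2 or BRCA1 to inhibitors of PARP1.

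RNA was sequenced from LNCaP-DaroR cells, a line of LNCaP prostate cancer cells that had been made resistant to the drug darolutamide by long culture with it. All cells of the study groups were DaroR cells and were grown in serum-containing medium. The paper states that the medium of DaroR cells also contained darolutamide. They were transfected with control siRNA (siControl, 2 libraries) or with siRNA against the long non-coding RNA LOC730101 (siLOC730101, 2 libraries). DaroR is a single resistant line, parental cells were not analysed here, and p-values measure only the spread between these samples, since the labels do not say whether the replicates came from separate cultures.

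The libraries held 39213498 to 53368158 counts, with the siControl libraries the deeper ones. LOC730101, listed as ENSG00000216775 on chromosome 6, was counted 2560 and 2370 times in the siControl libraries and 633 and 680 times after siLOC730101, which gave a log2 fold change of -1.56 (standard error, SE, 0.12, edgeR adjusted p = 4.34e-06). The 11 luminal prostate markers summed to between 7450 and 8216 CPM (counts scaled to library size with TMM factors) in siControl and between 7963 and 8321 in siLOC730101. Of the other markers, KRT5 and TP63 (basal), COL1A2 and LUM (stromal), PTPRC and CD3E (immune) and CHGA, CHGB and INSM1 (neuroendocrine) were at 0 in all libraries. The 5 immune markers summed to at most 0.256 CPM, the 3 basal markers to at most 0.632 CPM, the 6 stromal markers to between 14.6 and 18.3 CPM, and the 5 neuroendocrine markers to between 2.76 and 3.79 CPM.

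The study also examined E2F target genes and miR-1-3p, so the sequences that bear on these are shown first. Factors of the E2F family switch on genes of DNA replication and repair, several recombination genes among them. In the RefSeq promoter windows (GRCh38.p14, 250 bases before to 50 after a start), 32 of the 35 genes had a window. An E2F-type motif (the letters TTCCCGC, the letters TTCGCGC, the letters TTGGCGC or the letters TTGCCGC, on either strand) was found for 18 of these 32 genes (56.3%), compared with 2912 of 12236 tested genes with a window (23.8%). Each stretch below lies upstream of an annotated start of its gene, on the strand of the gene, with the motif in capitals. Genes can have several starts, so a stretch can lie within the span of its gene, as for RAD54L. They are shown for genes with low log2 fold changes and, as a contrast, for FANCG and PARP1, whose values lay near 0.
RAD54L, chr1:46247628-46247657, plus strand: gcgcagcactaTTCCCGCctcttccttggg
BRCA1, chr17:43125393-43125422, minus strand: aacggaaaagcGCGGGAAttacagataaat
BLM, chr15:90717261-90717290, plus strand: agcctgaggggGCGGGAAcagatgtccgag
FANCC, chr9:95317736-95317765, minus strand: tcgtcggaattTTCCCGCgacgccgcggga
FANCA, chr16:89816801-89816830, minus strand: actacaccgcgGCGGCAAagccaaacgcaa
FANCG, chr9:35080008-35080037, minus strand: cctcggtggaaGCGGGAAcccaggaggacc
PARP1, chr1:226408094-226408123, minus strand: gttccgtgggcgTTCCCGCggccaggcatc

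The median log2 fold change was -0.17 for the 18 genes with an E2F-type motif and -0.15 for the 14 without it. BRCA2, ATM, MRE11 and PALB2 had none of these letters in their windows. Over all tested genes with a window the medians were 0.0097 with and 0.016 without the motif. The cell cycle homology letters TTTGAA and the letters TTCGAA (either strand) were in the windows of 4 of the 32 genes (12.5%), against 15.4% of all genes with a window. The median log2 fold change was -0.31 for these 4 genes and -0.15 for the other 28, and over all genes it was -0.0097 with and 0.018 without these letters. CCAAT, also on either strand, was found for 15 genes (46.9%) against 42.5%. Genes with CCAAT had a median of -0.28 and those without it -0.10, while over all genes the medians were 0.015 and 0.013. These splits are descriptions and were not tested.

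The microRNA miR-1-3p pairs with messenger RNAs through its seed, bases 2 to 8, shown in capitals.
hsa-miR-1-3p: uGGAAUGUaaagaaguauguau
Its seed match ACATTCC (7mer-m8) or CATTCCA (7mer-A1) was searched on the transcript strand in the annotated 3′ UTR of the canonical transcript on GRCh37. A match was found in 5 of the 35 genes (14.3%) and in 2991 of 13500 tested protein-coding genes with a 3′ UTR (22.2%). The 5 genes were RAD54B, BRIP1, RAD50, NBN and RAD51D. The match of RAD54B was an 8mer, which holds both of these matches, and it is not printed. RAD50 and RAD51D held further matches besides those printed. The matched bases, in capitals, end the printed sites on the strand of the gene.
BRIP1, 7mer-A1, chr17:59759377-59759398: gctcatctctgacatCATTCCA
RAD50, 7mer-A1, chr5:131978257-131978278: tgctgctcttcatccCATTCCA
RAD51D, 7mer-m8, chr17:33426481-33426502: ccatgggtgattggcACATTCC
The median log2 fold change was -0.16 both for these 5 genes and for the 30 genes without a match. Over the 13500 genes it was -0.0096 with and 0.025 without a match. RAD54L, XRCC2, BRCA2 and BRCA1, which had the 4 lowest log2 fold changes, held no match in these windows.

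Across the 35 genes, 30 had a log2 fold change below 0 after siLOC730101 and the median was -0.16. Over all genes tested, 50.4% lay below 0 and the median was -0.0021. In the quasi-likelihood test of edgeR, 0 of the 35 genes reached an adjusted p below 0.05, which 0.284% of all genes did (0.0724% lower and 0.212% higher). At an unadjusted p under 0.05, 11 genes were lower and 0 were higher, against 4.39% and 6.43% of all genes. Both siLOC730101 libraries lay below both siControl libraries in 22 of the 35 genes (62.9%), against 20.5% of all genes, and above them in 3 genes, against 21.3%. DESeq2 gave 3 genes with an adjusted p under 0.05, BRCA1, BRCA2 and RAD54L, all lower, against 0.197% of its 31960 genes called lower. It gave no adjusted p for 5 of the 35 genes and for 22435 genes in all. Only 9525 genes could thus be called, and 63 of them were called lower. In these bulk libraries, fewer cells in a given phase and less RNA per cell cannot be told apart.

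**Figure D1:**
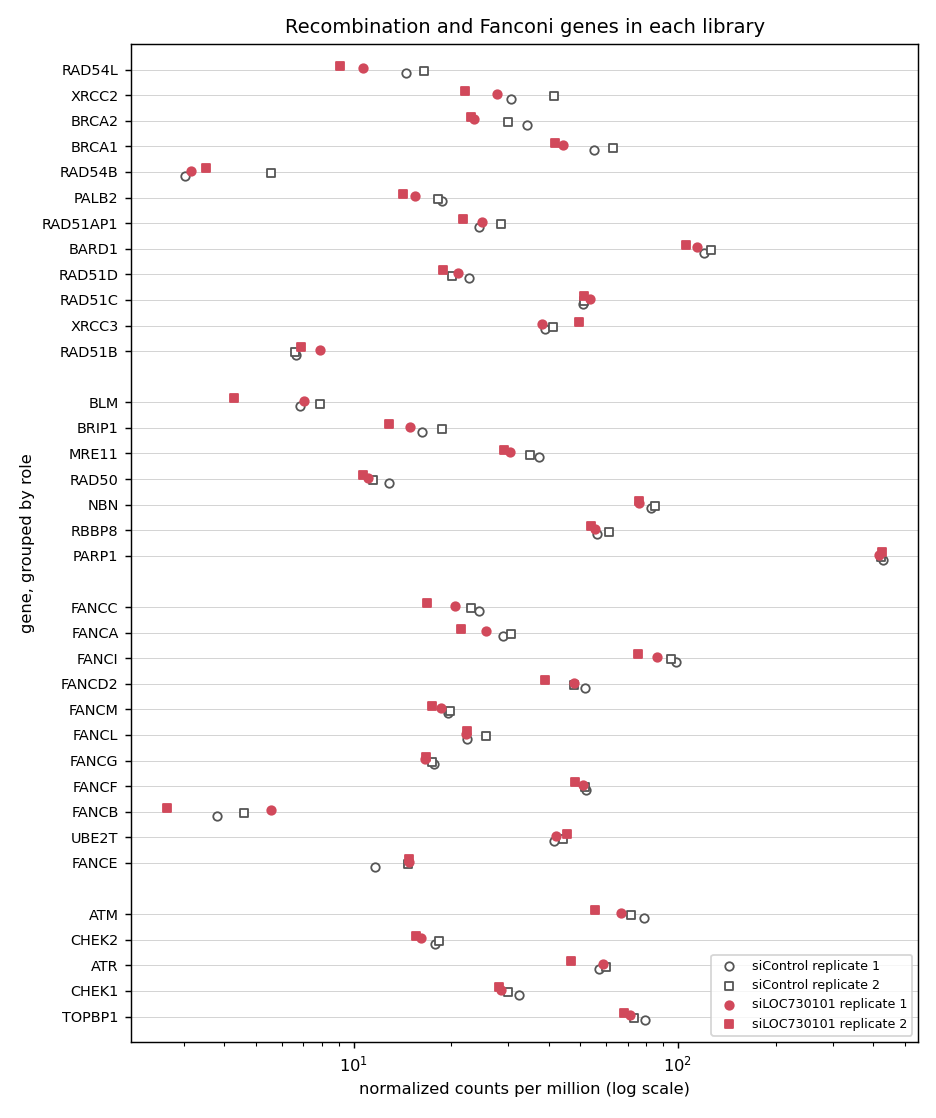
Normalized CPM (log axis) of each of the 35 genes in the 4 libraries, grouped by role and ordered by log2 fold change. Open symbols are siControl and filled symbols siLOC730101, circles replicate 1 and squares replicate 2; in 22 genes both filled symbols lie to the left of both open ones.

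The libraries of siLOC730101 were not equally low. Relative to the siControl mean, the median of the 35 genes was -0.11 on the log2 scale in siLOC730101 replicate 1 and -0.22 in replicate 2, while it was -0.017 and 0.017 in the siControl libraries. Replicate 2 of siLOC730101 lay below replicate 1 in 27 of the 35 genes, against 48.4% of all genes. Without siLOC730101 replicate 2 the median was -0.11, and 4 genes in place of 11 were lower at an unadjusted p under 0.05, against 3.86% of all genes in that fit. Without siLOC730101 replicate 1 the median was -0.21 with 15 such genes, against 5.75% of all genes. Without siControl replicate 1 or 2 it was -0.19 or -0.17, with 7 such genes each, against 4.65% and 3.17% of all genes. The number of genes with an adjusted p under 0.05 (edgeR) was 7 without siLOC730101 replicate 1, 3 without siControl replicate 1, 1 without siLOC730101 replicate 2 and 0 without siControl replicate 2. In the same order, 1.27%, 0.237%, 0.277% and 0.127% of all genes were called lower. These fits assume that the lone library varies like the pair of the other group.

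**Figure D2:**
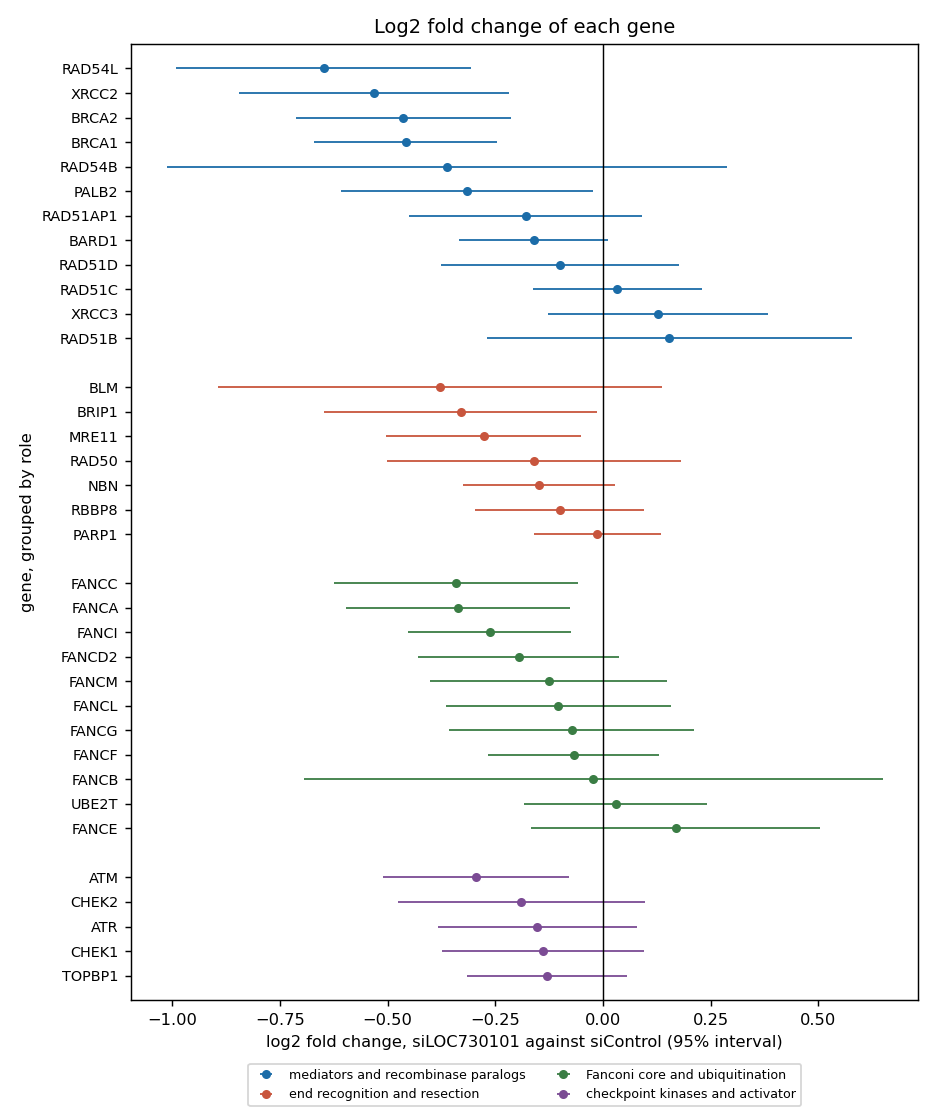
Log2 fold change of siLOC730101 against siControl for each of the 35 genes (points) with its 95% interval from the edgeR fit (bars), coloured by role. The intervals of 11 genes lie wholly below 0, those of RAD54L, XRCC2, BRCA2 and BRCA1 the furthest, and no interval lies wholly above 0.

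The mediators of recombination and the recombinase paralogs had the lowest values, and also the widest spread, from -0.65 to 0.15. Of these 12 genes, 9 were below 0, with a median of -0.25. RAD54L, a motor protein that drives strand exchange (chromosome 1, 46246461 to 46278480, GRCh38), was counted 787 and 771 times in siControl against 438 and 346 times after siLOC730101. Its normalized CPM was 14.6 and 16.5 in siControl and 10.7 and 9.11 in siLOC730101, so that the groups did not overlap. The log2 fold change was -0.65 (SE 0.16, edgeR adjusted p = 0.115). RAD54L shares 19.9% of its annotated exon bases with LRRC41 on the opposite strand, which had 30187 counts in all libraries, and reads of the strands were not separated.

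XRCC2 is a paralog of the recombinase that helps its filament form (chromosome 7, 152644776 to 152676193). It had normalized CPM values of 30.5 and 41.5 in siControl and 27.65 and 22.05 in siLOC730101. The siControl libraries stood far apart, although both were above both siLOC730101 libraries. The log2 fold change was -0.53 (SE 0.15, edgeR adjusted p = 0.153), -0.29 without siControl replicate 2 and -0.74 without siControl replicate 1.

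BRCA1, a ubiquitin ligase subunit that promotes resection and recruits PALB2 (chromosome 17, 43044295 to 43170245), was counted 2984 and 2952 times in siControl against 1812 and 1592 times after siLOC730101. The mean level was 59.1 ± 5.56 CPM (SD, n = 2) for siControl against 43.0 ± 1.53 CPM (SD, n = 2) for siLOC730101, and the groups did not overlap. BRCA1 had the smallest p of the 35 genes, ranking at 89 of the 19349 genes tested. Its log2 fold change was -0.46 (SE 0.10, edgeR adjusted p = 0.0741). The adjusted p was under 0.05 with library size only (0.0374), the legacy method off (0.0429), halved counts (0.0312) and DESeq2 (0.0082). It was 0.0014 with no filter beyond 1 count and 3.98e-04 with the replicate number as a block. In those fits the p-value of BRCA1 was that of a normal distribution, which takes no account of the few libraries. It stayed above 0.05 in the remaining alternatives that kept all libraries. With a library left out, the log2 fold change was between -0.55 and -0.36.

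BRCA2, which loads the recombinase on single strands (chromosome 13, 32315086 to 32400268), had normalized CPM values of 34.4 and 29.8 in siControl and 23.5 and 23.0 in siLOC730101. The siLOC730101 libraries were close together, below both siControl libraries. The log2 fold change was -0.46 (SE 0.12, edgeR adjusted p = 0.116). PALB2, the bridge between BRCA1 and BRCA2, had 18.7 and 18.2 CPM in siControl and 15.5 and 14.2 CPM in siLOC730101, again without overlap. Its log2 fold change was -0.32 (SE 0.14, edgeR adjusted p = 0.418).

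BARD1, the partner that stabilises BRCA1, had a log2 fold change of -0.16 with a 95% interval from -0.33 to 0.013, and thus a smaller difference than its partner at a higher level (123.2 ± 4.45 CPM in siControl, SD, n = 2). Whether the values of BRCA1 and BARD1 differ from each other was not tested. The other paralogs had values nearer 0 or above it, and their differences from XRCC2 were not tested. RAD51C had 51.15 and 51.23 CPM in siControl and 53.5 and 51.3 CPM in siLOC730101, and RAD51D a log2 fold change of -0.099. RAD51B (0.15) and XRCC3 (0.13) were above 0, with 95% intervals from -0.27 to 0.58 and from -0.13 to 0.38. For XRCC3, siLOC730101 replicate 2 stood apart (49.6 CPM, against 38.1 in replicate 1 and 38.96 and 41.3 in siControl), and the value was -0.077 without it. Of its exon bases, 76.7% are shared with KLC1 on the opposite strand. RAD51AP1, which aids strand pairing, had a log2 fold change of -0.18 and overlapping groups.

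RAD54B, a relative of RAD54L, was counted only 130 to 260 times in a library. It had 3.03 and 5.55 CPM in siControl and 3.16 and 3.50 CPM in siLOC730101, so that its log2 fold change of -0.36 (95% interval from -1.01 to 0.29) turned to 0.14 without siControl replicate 2. It shares 66.0% of its exon bases with FSBP.

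All 7 genes of break recognition and resection lay below 0, with a median of -0.16 and a range from -0.38 to -0.013. MRE11, the nuclease of the complex that first binds broken ends, had 37.2 and 34.95 CPM in siControl and 30.4 and 29.2 CPM in siLOC730101. The groups did not overlap, and the log2 fold change was -0.28 (SE 0.11, edgeR adjusted p = 0.325). Its partners RAD50 (-0.16) and NBN (-0.15) were also below both siControl libraries. For RAD50, 76.9% of the exon bases are shared with other annotated genes, and the gene with the largest overlap had 0 counts. Reads on shared bases may have been left out of both genes, so this 0 does not show that RAD50 was unaffected.

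BRIP1, a helicase that binds BRCA1, had 16.3 and 18.7 CPM in siControl and 14.9 and 12.9 CPM in siLOC730101. Its log2 fold change was -0.33 (SE 0.15, edgeR adjusted p = 0.443), with groups that did not overlap. BLM, a helicase that dissolves joined molecules, had 6.84 and 7.90 CPM in siControl and 7.03 and 4.29 CPM in siLOC730101. The low value was that of siLOC730101 replicate 2 alone, and the log2 fold change of -0.38 became -0.070 without it. RBBP8, which starts resection with MRE11, had a log2 fold change of -0.10.

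PARP1, the sensor of strand breaks, was by far the most abundant of the 35 genes and differed least. It had 427.6 and 423.1 CPM in siControl and 417.2 and 425.8 CPM in siLOC730101. The libraries of the groups overlapped, and the log2 fold change was -0.013 (SE 0.069, edgeR adjusted p = 0.975). Its 95% interval from -0.16 to 0.13 does not reach the fitted value of BRCA1, and the difference between the genes was not tested.

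Among the 11 Fanconi genes, 9 were below 0, with a median of -0.10. FANCA, a scaffold subunit of the core ubiquitin ligase, had 28.99 and 30.6 CPM in siControl and 25.7 and 21.4 CPM in siLOC730101. Its log2 fold change was -0.34 (SE 0.12, edgeR adjusted p = 0.287), and the groups did not overlap. It shares 19.6% of its exon bases with ZNF276 on the opposite strand. FANCC, another core subunit, had 24.4 and 23.0 CPM in siControl and 20.6 and 16.8 CPM in siLOC730101, with a log2 fold change of -0.34 (SE 0.13, edgeR adjusted p = 0.332). Without siLOC730101 replicate 2, the values were -0.22 for FANCA and -0.21 for FANCC.

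The ubiquitinated pair gave values on either side of the unadjusted threshold. FANCI had 98.5 and 95.5 CPM in siControl and 86.1 and 75.5 CPM in siLOC730101, with a log2 fold change of -0.26 (SE 0.088, edgeR adjusted p = 0.249). FANCD2 had 51.6 and 47.73 CPM in siControl and 47.66 and 39.01 CPM in siLOC730101, with a log2 fold change of -0.20 (SE 0.11, edgeR adjusted p = 0.557). For FANCD2 the upper siLOC730101 library nearly met the lower siControl library. In both genes, siLOC730101 replicate 2 held the lowest value, and without it the log2 fold change was -0.17 for FANCI and -0.062 for FANCD2.

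For the enzymes that attach the ubiquitin, differences from FANCI and FANCD2 were not tested. UBE2T, the conjugating enzyme, had 41.5 and 44.1 CPM in siControl and 42.0 and 45.5 CPM in siLOC730101, a log2 fold change of 0.030 (95% interval from -0.18 to 0.24). FANCL, the ligase, had a log2 fold change of -0.10 (95% interval from -0.37 to 0.16). The core subunits FANCG (-0.073) and FANCF (-0.067) and the translocase FANCM (-0.13) had 95% intervals that included 0. FANCE had 11.7 and 14.7 CPM in siControl and 14.8 in both siLOC730101 libraries, and its log2 fold change of 0.17 was the highest of the 35 genes. FANCB, on chromosome X, had the fewest counts of the Fanconi genes (101 to 229 in a library), and its siLOC730101 libraries lay on either side of siControl at 5.57 and 2.66 CPM.

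The 5 checkpoint genes were all below 0, between -0.30 and -0.13, with a median of -0.15. ATM, the kinase activated by broken ends (chromosome 11, 108223044 to 108369102), had 78.7 and 71.6 CPM in siControl and 66.9 and 55.5 CPM in siLOC730101. The groups did not overlap, and the log2 fold change was -0.30 (SE 0.10, edgeR adjusted p = 0.263). Leaving out siLOC730101 replicate 2 gave -0.17, and leaving out replicate 1 of that group gave -0.43.

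ATR, the kinase of stalled forks, had 57.1 and 60.1 CPM in siControl and 58.8 and 46.7 CPM in siLOC730101. The groups overlapped, since only siLOC730101 replicate 2 was low, and the log2 fold change of -0.15 (SE 0.11, edgeR adjusted p = 0.673) became 4.46e-04 without that library. CHEK1, the kinase downstream of ATR, had 32.4 and 29.9 CPM in siControl and 28.6 and 28.03 CPM in siLOC730101. Its log2 fold change was -0.14 (SE 0.11, edgeR adjusted p = 0.714), and -0.079 without siControl replicate 1. CHEK2, downstream of ATM, was at -0.19 and TOPBP1, the activator of ATR, at -0.13, both with siLOC730101 below siControl in all libraries.

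Levels between genes were compared as CPM per kilobase of canonical transcript in siControl. PARP1 stood highest at 106.9, followed by UBE2T (48.8), BARD1 (22.5), FANCI (20.5) and RAD51C (19.98). The lowest were RAD50 (1.47), BLM (1.41), RAD54B (1.40) and FANCB (1.39), which neighbour each other closely. RAD50 and RAD54B share 76.9% and 66.0% of their exon bases with other genes. Reads on shared bases may have been left out, so the levels of RAD50 and RAD54B may be too low, which was not tested. BRCA1 (8.34) lay near the middle and BRCA2 (2.69) at rank 29 of 35. The counts were taken over all annotated exons, so the order depends on the length used: over these exons PARP1, UBE2T and BARD1 kept ranks 1 to 3, whereas FANCL moved from rank 10 to rank 34.

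Transcript length and GC content moved with the result. The 35 genes were longer than the genes tested, with a median canonical transcript of 4592 bases against 2604, and 9 of them were in the longest decile of the genes. The median log2 fold change over all genes was 0.081 in the third decile by length (1144 to 1631 bases) and -0.058 in the longest, but the shortest decile (72 to 684 bases, none of the 35 genes) was also low at -0.053. Between the siLOC730101 libraries, replicate 2 minus replicate 1 had a median of 0.11 in the third decile and -0.088 in the longest decile. Within the 35 genes, which share these libraries, Spearman's rho between log2 fold change and length was -0.48, and over all 18913 genes with a length it was -0.093. For the GC content of the transcript, rho was 0.27 within the 35 genes and 0.16 over the 18913 genes. The median GC content was 41.8% for the 35 genes and 48.6% for all genes tested. With the length trend of each library removed, 30 of the 35 genes stayed below 0 and the median was -0.13. At an unadjusted p under 0.05, 10 of the 35 were lower, against 4.47% of all genes in that fit. With GC content removed as well, the values were 29, -0.11 and 9, against 4.53% of all genes. These corrections were chosen after seeing the data.

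**Figure D3:**
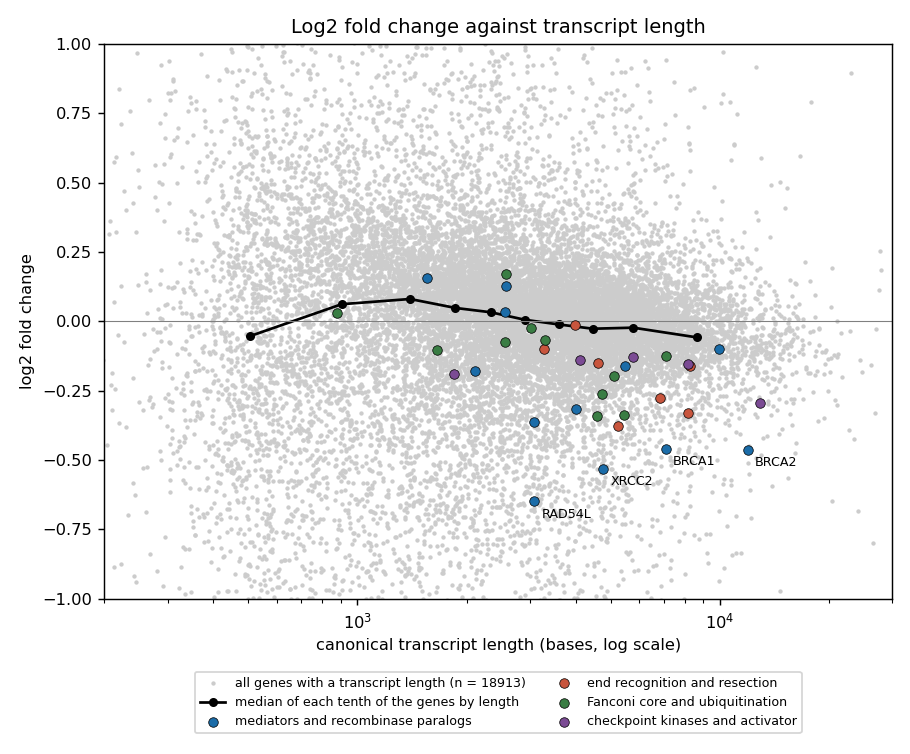
Log2 fold change against canonical transcript length (log axis) for 18913 genes (grey) and the 35 genes (coloured by role), with the median of each length decile (black). The black line runs from -0.053 in the shortest decile to 0.081 in the third and -0.058 in the longest, and RAD54L, XRCC2, BRCA1 and BRCA2 lie below it; log2 fold changes beyond 1 and the extreme lengths are not drawn.

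The other lists of repair and checkpoint genes that were examined had medians nearer 0. Of 44 further recombination and Fanconi genes, 28 were below 0, with a median of -0.055, and none had an adjusted p under 0.05 in edgeR. At an unadjusted p under 0.05, 6 were lower and 2 were higher, against 4.39% and 6.43% of all genes. RPA1, which coats single strands, had a log2 fold change of -0.38 (edgeR adjusted p = 0.0594) and USP1, which removes ubiquitin from FANCD2, of -0.24 (edgeR adjusted p = 0.259). CENPX, a small partner of FANCM, was on the other side at 0.50 (edgeR adjusted p = 0.0868), and its transcript is short, with 765 bases. UBE2T, also short with 878 bases, was at 0.030. The part of transcript length in the values of single genes was not tested. Of 23 further checkpoint and break response genes, 13 were below 0 with a median of -0.034. CLSPN, the adaptor between ATR and CHEK1, had a log2 fold change of -0.35 (edgeR adjusted p = 0.326) and TIMELESS, a fork protection factor, of -0.19 (edgeR adjusted p = 0.389).

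Nonhomologous end joining, the repair route that needs no sister chromatid, had 7 of 11 genes below 0 with a median of -0.050. PAXX had a log2 fold change of 0.45 (edgeR adjusted p = 0.104), on a transcript of 808 bases, and PRKDC of -0.18 (edgeR adjusted p = 0.452). NHEJ1 was at -0.91 (edgeR adjusted p = 0.384), with only 1.07 to 3.01 CPM in a library.

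Genes of replication and mitosis had similar values. Of 22 S phase genes, 19 were below 0 with a median of -0.16, and of 19 G2/M genes, 18 were below 0 with a median of -0.19. The median transcripts of these lists were 2879 and 2668 bases long, against 2604 over all genes tested. Among the S phase genes, RRM2 and RRM1, the subunits of ribonucleotide reductase, had log2 fold changes of -0.34 (edgeR adjusted p = 0.104) and -0.29 (edgeR adjusted p = 0.166), and GINS1 of the replicative helicase -0.35 (edgeR adjusted p = 0.169). Among the G2/M genes, the values were -0.35 for MKI67, -0.30 for TOP2A and -0.25 for FOXM1, with adjusted p-values of 0.116, 0.179 and 0.258 in edgeR. Neither list had a gene with an adjusted p under 0.05 in edgeR. At an unadjusted p under 0.05, 6 and 7 genes were lower and 0 were higher, against 4.39% and 6.43% of all genes. The part of the cell cycle in the values of the recombination genes was not tested.

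**Figure D4:**
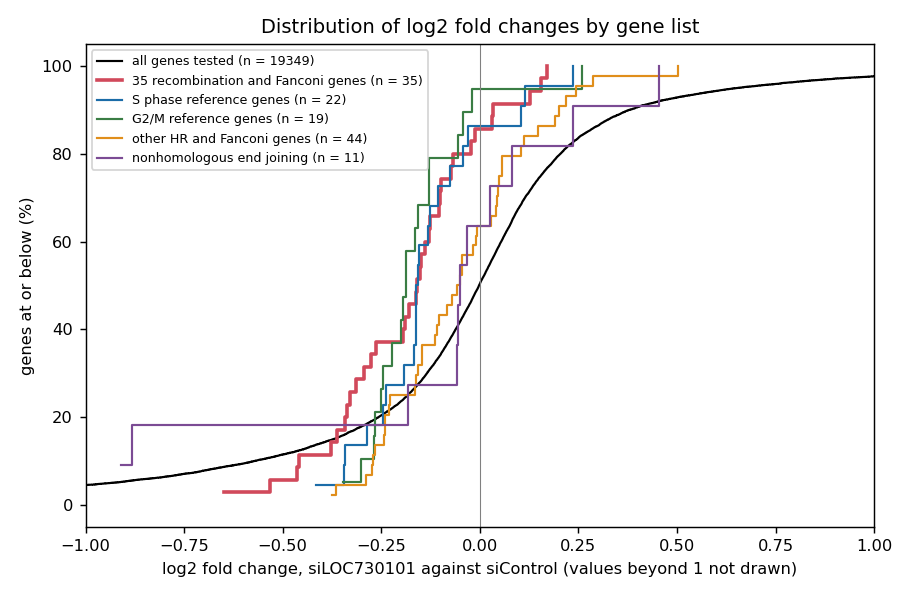
Cumulative share of genes (%) at or below each log2 fold change for the 35 genes, 4 other lists and all 19349 genes tested. The curve of the 35 genes reaches 85.7% at 0, near those of the S phase (86.4%) and G2/M genes (94.7%), where the other recombination genes and end joining reach 63.6% and all genes 50.4%.

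The median of the 35 genes stayed below that of all genes in each alternative that was run. It was lower by 0.16 as reported, and by between 0.091 without siLOC730101 replicate 2 and 0.19 without siControl replicate 1.

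**Figure D5:**
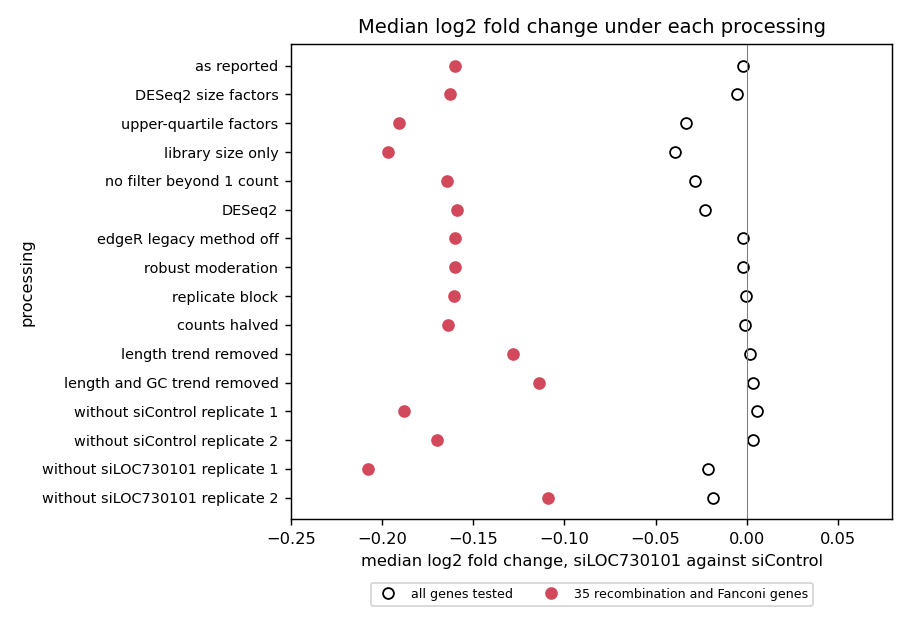
Median log2 fold change of the 35 genes (filled) and of all genes tested (open) as reported and under 15 alternatives. The filled points lie between -0.21 and -0.11 and the open points between -0.039 and 0.0054.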

How the data were processed

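Poly(A) RNA of 2 siControl and 2 siLOC730101 libraries was measured. The authors trimmed the reads, and per the file headers the deposited counts were made with featureCounts 2.0.1 on exons by gene name, with gencode 41 on hg38, without normalization. The header gives no option for pairs, for strand or for reads on more than 1 gene. The methods of the study name STAR and hg19, and the labels name hg38 and BWA. Even numbers made up 66.0% to 70.1% of the values from 1 to 20 in a library, so the mates of a pair may have been counted apart.

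Counts were filtered with filterByExpr, scaled with TMM and tested with the quasi-likelihood test of edgeR 4.0.16 (legacy method, the default) in R 4.3.3, with Benjamini-Hochberg adjustment over the 19349 genes tested. Standard errors were taken from the coefficient and its F statistic. The test was checked on simulated data. DESeq2 1.42.0 was an alternative, as were other scalings, filters and settings, and each library left out. With 2 against 2 libraries, 0.333 is the smallest two-sided p that exact permutation allows. Chi-square divided by its degrees of freedom came to 10.6 for the siControl pair and 13.0 for the siLOC730101 pair, so neither pair is a library deposited again. Transcript lengths and 3′ UTRs came from a GRCh37 lift of gencode, joined by gene name (18913 genes), and its coordinates were not converted.

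All 35 genes are given. Full statistics were printed for genes with an unadjusted p under 0.05 and for BRCA1, BRCA2, FANCA, FANCD2, ATM, ATR, CHEK1 and PARP1. At most 3 genes with the smallest p under 0.05 were named from each other list. The genes and lists were chosen with earlier results of these data known. Intervals rest on the spread between libraries as edgeR estimates it, with each gene's spread drawn towards that of other genes. The median was 15.1 degrees of freedom, so they are not the spread of that gene's libraries alone.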

Additional observations from a re-analysis of the deposited data

How the results depend on the processing

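Over 15 alternatives, 27 of the 35 genes kept their direction. With library size only, RAD51C was at -0.0030 and UBE2T at -0.0085, and with upper-quartile factors UBE2T was at -0.0015. With the length trend removed, PARP1 was at 0.012 and UBE2T at -0.042, and with GC content as well PARP1 was at 0.013, FANCB at 0.014 and UBE2T at -0.0023. With each library left out in turn, log2 fold changes ranged from -0.077 to 0.32 for XRCC3, from -0.74 to 0.14 for RAD54B, from -0.031 to 0.011 for PARP1, from -0.65 to 0.41 for FANCB, from -0.20 to 1.42e-05 for FANCL, from -0.032 to 0.097 for UBE2T and from -0.32 to 4.46e-04 for ATR. The number of the 35 genes lower at an adjusted p under 0.05, 0 as reported, was 1 with library size only, 4 with no filter beyond 1 count, 3 with DESeq2, 1 with the legacy method off, 1 with halved counts, 5 with the replicate number as a block, and 0 to 7 with a library left out. At an unadjusted p under 0.05 it was 4 to 15 with a library left out. Over all genes, 41 higher and 14 lower genes became 324 and 113 with no filter beyond 1 count, 234 and 63 with DESeq2, 87 and 24 with the legacy method off, 112 and 34 with halved counts, 91 and 34 with the length trend removed and 85 and 31 with GC content as well. They became 485 and 167 with the replicate block, 35 lower with library size only, and 77 to 923 higher and 26 to 272 lower with a library left out. The genes in the fit numbered 31960 with no filter and with DESeq2 and 17031 with halved counts, against 19349 as reported. Of all genes in the fit, 0.0724% were called lower as reported, 0.181% with library size only and 0.354% with no filter. The share was 0.197% with DESeq2, 0.124% with the legacy method off, 0.200% with halved counts and 0.863% with the replicate block. With no filter and with the replicate block, the p-values of LOC730101 and BRCA1 were close to those of a normal distribution. Such p-values take no account of how few libraries the spread rests on. The cause of the changed counts was not tested. In the fits without a library, its lone partner is assumed to vary like the other group. Both trend corrections were chosen after seeing the data. The labels give a replicate number but do not pair the samples. Over all genes tested, the deviations of same-numbered libraries had a correlation of -9.0e-04. This value cannot show whether some genes share a batch, which was not tested. LOC730101 passed the threshold in all 15 alternatives. FANCB, RAD54B and BLM, with 101 to 370 counts in a library, had standard errors of 0.32, 0.31 and 0.24, and of 0.31, 0.31 and 0.24 with halved counts.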
